A study of Mus musculus with 2 samples.

Results

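Of the macroH2A1 peaks mapped in E14 mouse embryonic stem cells, 12 of 2560 were assigned to 7 genes of mesenchyme and extracellular matrix. These genes were Eln, Col3a1, Sulf2, Pdgfra, Thy1, Vim and Twist2. They were chosen by their entries in the deposited peak list, so each has at least 1 peak by construction, and the peak numbers, distances, sides and widths below are descriptions with no test. They stand among 1409 genes with a symbol, and 2132 genes in all, to which the list assigns a peak.

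The series holds 2 chromatin immunoprecipitation libraries that were sequenced (ChIP-seq), 1 made with an antibody raised against part of mouse macroH2A1 and 1 made with IgG, a non-specific control antibody. Both came from untreated cells of E14, an embryonic stem cell line of the mouse that is long established, grown with leukemia inhibitory factor, which keeps such cells undifferentiated, on gelatine-coated plates. Each antibody has 1 library and no replicate, so no value below carries an error for variation between cultures. The values analysed here are the peak regions of the macroH2A1 library. The list gives no read count, enrichment or score for a peak, the depth of both libraries is unknown, and no value of the IgG library was analysed here. The labelled cell type could not be checked against marker genes in a list of peaks.

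MacroH2A1 is a form of histone H2A with a large globular macro domain joined to its tail. It is known for its presence on the inactive X chromosome and at silent developmental genes. Mesenchymal cells, such as fibroblasts and smooth muscle cells, build the extracellular matrix from collagens, elastic fibres and sulfated proteoglycans. The genes described here serve in that matrix, in receiving growth signals, in the cytoskeleton and in gene control. Most are best known from differentiated mesenchyme, while Thy1 is also known from neurons and T cells. No expression was measured here.

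The authors gave every peak to 1 gene, that whose start is nearest, so assignment says where a peak lies and not which gene it acts on. Distances are the gaps between a gene's start and the edge of the peak that is closer to it. Upstream and downstream follow the direction of transcription, and coordinates are as deposited, in the mouse build mm9. The list of gene borders holds no exons, so a position in an exon, an intron or an untranslated region was not determined.

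None of the 12 peaks covered the start of any of the 7 genes. In the whole list 30 of 2560 peaks (1.17%) covered the start of their gene. At so low a share, none among 12 peaks is not read as a trait of these genes. The 250 bases before each start were taken from RefSeq, on the build GRCm38.p6, to show what kind of DNA lies at these starts. The table held 6 such windows for 5 of the 7 genes, namely Col3a1, Twist2, Vim, Pdgfra and Sulf2, the last with 2 listed starts. The windows of Col3a1, Sulf2 and Twist2 are printed because they run from the poorest to the richest in CG, the base pair step that marks CpG islands, and capitals mark each CG.

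Col3a1, chr1:45311288-45311537, plus strand: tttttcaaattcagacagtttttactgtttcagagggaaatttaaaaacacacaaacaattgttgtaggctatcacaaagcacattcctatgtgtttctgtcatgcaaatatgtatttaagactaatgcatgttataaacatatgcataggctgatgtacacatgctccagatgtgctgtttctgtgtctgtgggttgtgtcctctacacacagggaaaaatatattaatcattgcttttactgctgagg
Sulf2, chr2:166155684-166155933, minus strand: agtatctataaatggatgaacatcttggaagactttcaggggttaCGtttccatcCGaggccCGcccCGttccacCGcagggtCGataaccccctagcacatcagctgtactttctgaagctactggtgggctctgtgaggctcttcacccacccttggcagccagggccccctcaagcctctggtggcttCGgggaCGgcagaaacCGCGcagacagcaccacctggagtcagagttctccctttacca
Twist2, chr1:91801211-91801460, plus strand: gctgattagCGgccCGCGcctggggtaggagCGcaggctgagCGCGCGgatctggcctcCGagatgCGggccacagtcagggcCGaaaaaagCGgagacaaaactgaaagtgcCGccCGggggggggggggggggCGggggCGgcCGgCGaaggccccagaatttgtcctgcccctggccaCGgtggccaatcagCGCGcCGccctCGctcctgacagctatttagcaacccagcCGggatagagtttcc

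The Col3a1 window held 0 CG, as did 7.87% of all 32851 windows of this length, and its G and C content was 35.2%. The Twist2 window held 23 CG, more than 86.7% of all windows, with a G and C content of 68.8%. The Sulf2 window printed above held 10 CG and the window of the other listed start 21. Vim had 8 and Pdgfra 4, against a median of 6 over all windows. CG reads the same on both strands, and 92.1% of all windows held at least 1. The CG content at these starts thus ran from none to the upper part of the range of all windows. The windows and the peaks belong to different builds, so these sequences were not laid over the peaks.

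**Figure D1:**
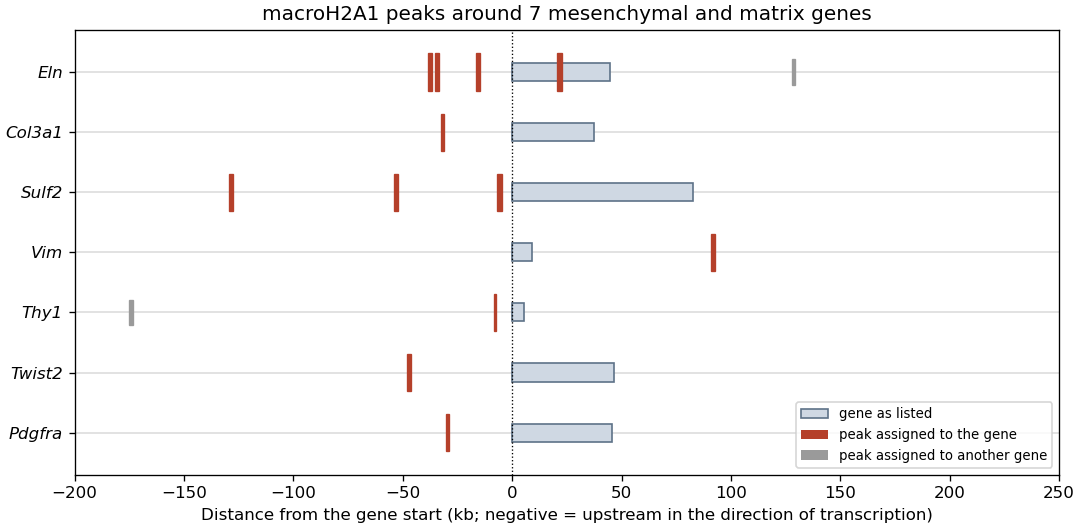
Map of the peaks around each of the 7 genes, drawn from the gene start at 0 (x axis, kb, negative upstream). Red marks are peaks assigned to the gene, grey marks are peaks of other genes within 200 kb, and pale bars are the genes as listed. Of the 12 red marks, 10 lie upstream, 1 lies inside Eln and 1 lies downstream of Vim.

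The number of peaks differed among the 7 genes. Eln and Sulf2 carried 7 of the 12 peaks, with 4 and 3 each, and the other 5 genes had 1 peak each. In the list, 42 of the 1409 genes with a symbol (2.98%) had 3 or more peaks, 12 (0.852%) had 4 or more, and 1209 (85.8%) had 1. These numbers count entries of the list. Its 2560 entries hold 2558 distinct regions, and a region entered more than once was counted each time. The 7 genes were chosen with their peak numbers known, so nothing is read from 2 of 7 having 3 or more.

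**Figure D2:**
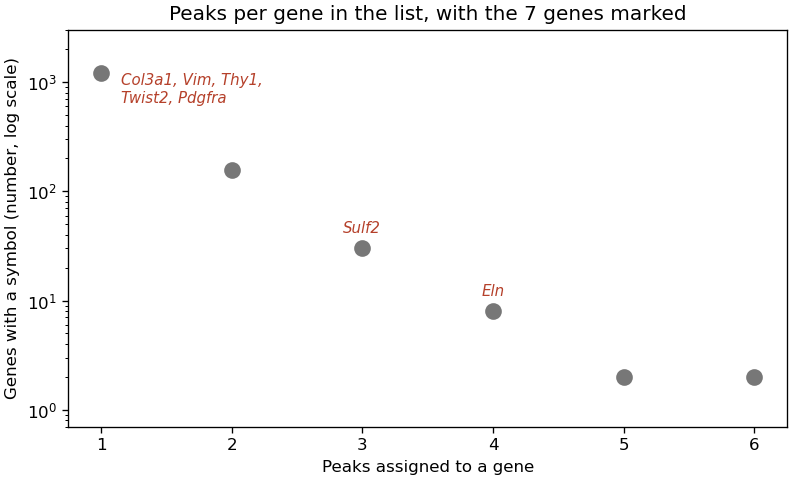
Number of genes with a symbol (y axis, log scale) that have 1 to 6 assigned peaks (x axis), as grey points, with the positions of the 7 genes in red. Sulf2 is among 30 genes with 3 peaks and Eln among 8 genes with 4.

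Among the matrix genes, Eln had the most peaks. It encodes elastin, the core protein of elastic fibres in arteries, lung and skin. The gene (ENSMUSG00000029675) lies on the minus strand of chromosome 5, from 135178466 to 135223124, a length of 44.7 kb. Its closest peak, chr5:135238050-135239650, lay 14.9 kb upstream and was 1601 bp wide. The next, chr5:135200500-135202450, lay inside the gene, with all of its 1951 bp between 20.7 and 22.6 kb past the start. This was the only one of the 12 peaks that overlapped its gene, while 16.0% of the list's peaks did.

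The remaining Eln peaks formed a close pair upstream. They lay at chr5:135256400-135258450, 33.3 kb from the start and 2051 bp wide, and at chr5:135259550-135261500, 36.4 kb from the start and 1951 bp wide. A gap of 1100 bp parted them. Of 2538 pairs of adjacent regions in the list, 13 (0.512%) had a gap no larger than this. The gap was picked as the smallest between peaks of the genes described here, so nothing is read from this low share. The other gaps between Eln peaks were 35.6 and 16.8 kb, so the 4 peaks spanned 61.0 kb, from the body of the gene to beyond its start.

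Col3a1 encodes the chain of type III collagen, a fibrillar collagen of vessels, skin and hollow organs. The gene (ENSMUSG00000026043) lies on the plus strand of chromosome 1, from 45368477 to 45405861. It had 1 peak, chr1:45336050-45337200, which lay 31.3 kb upstream and was 1151 bp wide. Only 9.77% of the list's peaks were narrower, and the lowest width in the list was 1051 bp. The nearest peak of any other gene was 1272 kb from Col3a1, so this was a lone and narrow region, unlike the group at Eln. Gulp1 and Col5a2 are its neighbouring protein-coding genes in RefSeq, upstream and downstream.

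Sulf2 encodes an extracellular sulfatase that trims sulfate groups from heparan sulfate and so alters how growth factors bind to it. The gene (ENSMUSG00000006800) lies on the minus strand of chromosome 2, from 165898589 to 165981156, and is the longest of the 7, at 82.6 kb. All 3 of its peaks were upstream. The first, chr2:165985750-165988150, lay 4.59 kb from the start, the shortest distance among the 12 peaks. It was also the widest of them, at 2401 bp, and 96.8% of the list's peaks were narrower. The second, chr2:166033200-166035200, lay 52.0 kb away and was 2001 bp wide.

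The third Sulf2 peak, chr2:166108900-166110800, lay 128 kb from the start and was 1901 bp wide. It was the most distant of the 12, and 81.2% of the list's peaks were closer to their genes. Gaps of 45.0 and 73.7 kb parted the Sulf2 peaks, which spread over 125 kb without a peak of another gene among them. Unlike those of Eln, they did not reach into the gene.

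Pdgfra and Thy1 encode proteins of the cell surface. Pdgfra is the alpha receptor for platelet-derived growth factor, a tyrosine kinase that drives growth and movement of mesenchymal cells. The gene (ENSMUSG00000029231) lies on the plus strand of chromosome 5, from 75548361 to 75594218. Its peak, chr5:75518300-75519400, lay 29.0 kb upstream and, at 1101 bp, was the narrowest of the 12, with 5.78% of the list narrower. The nearest peak of another gene was 1167 kb away. In RefSeq, the homeobox gene Gsx2 is its upstream neighbour and Kit, another receptor kinase gene, its downstream one.

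Thy1 encodes a small glycoprotein anchored in the membrane of fibroblasts, neurons and T cells. The gene (ENSMUSG00000032011) lies on the plus strand of chromosome 9, from 43851467 to 43856662, and is the shortest of the 7, at 5.20 kb. Its peak, chr9:43842950-43844200, lay 7.27 kb upstream and was 1251 bp wide. Sulf2 and Thy1 were the genes with a peak within 10 kb of the start, 1 peak each. That is 2 of 12 peaks, beside 23.6% of the peaks in the list.

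Vim encodes vimentin, the intermediate filament protein of mesenchymal cells, and was the gene whose peak lay on the other side. The gene (ENSMUSG00000026728) lies on the plus strand of chromosome 2, from 13495579 to 13504434. Its peak, chr2:13586650-13588400, lay downstream, 91.1 kb from the start and 82.2 kb past the end of the gene, and was 1751 bp wide. Downstream peaks made up 32.6% of the list. The nearest other peak in the list was 1131 kb away. In RefSeq the next protein-coding gene downstream of Vim is St8sia6, but the later build of that table did not allow the peak to be placed between them.

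Twist2 encodes a transcription factor of the basic helix-loop-helix class that is active in dermis and other mesenchyme. The gene (ENSMUSG00000007805) lies on the plus strand of chromosome 1, from 93698038 to 93744605. Its peak, chr1:93649850-93651650, lay 46.4 kb upstream and was 1801 bp wide, with 70.0% of the list narrower. The nearest peak of another gene was 522 kb from Twist2.

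Over the 12 peaks, the distance ran from 4.59 to 128 kb with a median of 32.3 kb, against a median of 32.2 kb over the list, whose middle 50% ran from 10.6 to 97.7 kb. By distance, 2 peaks lay within 10 kb, 7 between 10 and 50 kb and 3 beyond 50 kb, and the list had 36.7% of its peaks in the middle range and 39.6% beyond it. Counted by gene, the closest peak had a median distance of 29.0 kb over the 7 genes and of 21.4 kb over the 1409 genes with a symbol.

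By the authors' classes, 10 of the 12 peaks were upstream, 1 was inside and 1 was downstream, beside 51.4% of the list in the upstream class. Upstream peaks were found at 6 of the 7 genes, Vim being the exception. The share of all assigned genes with an upstream peak was not counted, so nothing is read from 6 of 7. Eln and Sulf2 alone gave 6 of the 10 upstream peaks, and peaks of 1 gene are not independent of each other.

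Peak widths were high at Sulf2 and at Eln, apart from the closest Eln peak, and low at Col3a1, Pdgfra and Thy1. That Eln peak, at 1601 bp, was near the list median, with 51.4% of the list narrower. The median over the 12 peaks was 1851 bp, with extremes of 1101 and 2401 bp, against a list median of 1551 bp and a middle 50% from 1301 to 1814 bp. Of the 12 peaks, 9 were wider than the list median, as were 48.6% of all peaks. These 9 were all 7 peaks of Eln and Sulf2 and those of Vim and Twist2. The 3 narrower ones belonged to Col3a1, Pdgfra and Thy1 and measured at most 1251 bp, where the lowest width in the list was 1051 bp. At the genes with 3 or more peaks the median was 1951 bp (7 peaks) and at those with 1 peak 1251 bp (5 peaks). Over all genes with a symbol the same medians were 1651 bp (144 peaks) and 1551 bp (1209 peaks). With no enrichment value per peak, a wide peak could not be told apart from a strong one.

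**Figure D3:**
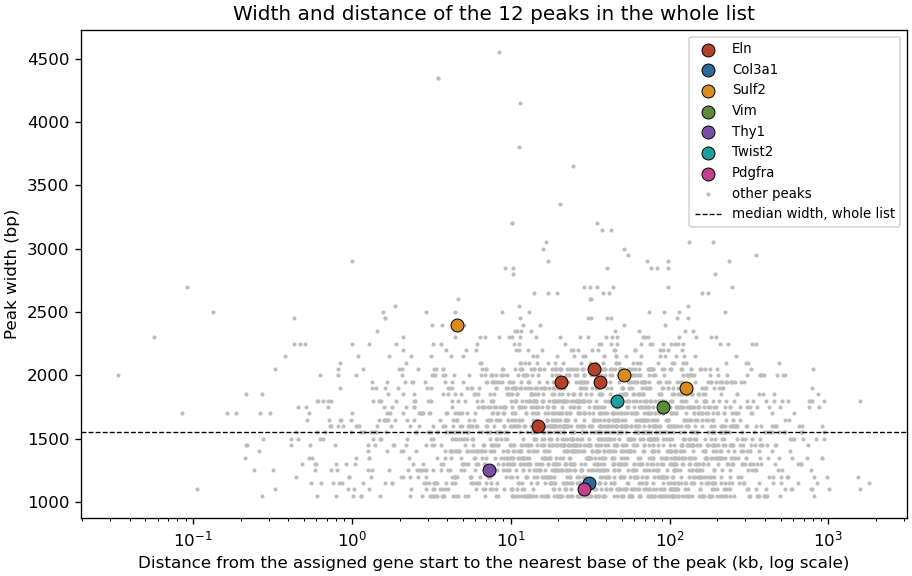
Width (y axis, bp) against distance from the assigned gene start (x axis, kb, log scale) for the 12 peaks, in colour by gene, and for the other peaks of the list, in grey. The 30 peaks that cover a start have distance 0 and are not drawn. The 7 points of Eln and Sulf2 lie above the dashed list median of 1551 bp, and those of Col3a1, Pdgfra and Thy1 lie at or below 1251 bp.

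Each peak name ends in a number, from 1 to 2560, and the sources used here do not state what that number means. It fell with width over the list (Spearman's rho = -0.60, a description across peaks that share 1 library). The closest Sulf2 peak had number 26, which is low in that range, and the Eln peaks had 172, 283, 1215 and 2268. The other Sulf2 peaks had 241 and 830. The peaks of Vim, Twist2, Col3a1, Pdgfra and Thy1 had 1122, 1282, 1620, 2143 and 2472. As the meaning of the number is not stated, nothing is read from where these peaks fall in its range.

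Peaks of other genes around these 7 were counted within 200 kb. Within 200 kb of the 7 gene bodies the list held 14 peaks, the 12 described and 2 others. The first, chr5:135094000-135095050, 1051 bp wide, lay 83.4 kb past the end of Eln and was assigned to Lat2, an adaptor protein gene of immune cells, 3.11 kb upstream of its start. The second, chr9:43676350-43678050, 1701 bp wide, lay 173 kb upstream of Thy1 and was assigned to ENSMUSG00000074409, a gene without a symbol. Just outside this range, the next peak lay 285 kb from Sulf2. Peaks of another gene were near 2 of the 7 genes, and 512 of the 1409 genes with a symbol (36.3%) had one within 200 kb. For so few genes, 2 of 7 is not read as a difference from that share.

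The close neighbours of these peaks belonged to the same gene. Of the 12 peaks, 6 had another peak within 50 kb, all 4 of Eln and 2 of Sulf2, beside 20.9% of the list. Eln and Sulf2 were chosen with their peak numbers known, and peaks of 1 gene are not independent. Nothing is therefore read from 6 of 12 beside the share of the list. The lone peaks of Col3a1, Pdgfra, Vim, Twist2 and Thy1 had no other peak within 50 kb, and the nearest was that beside the Thy1 peak, at a gap of 164900 bp. By chromosome, 5 of the 12 peaks lay on chromosome 5, 4 of Eln and 1 of Pdgfra, and that chromosome held 250 peaks of the list (9.77%).

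The other genes of the same functions were taken from 8 lists with 195 genes, which include the 7. Of the 195, 25 (12.8%) had an assigned peak, beside 6.16% of 21631 protein-coding genes (chromosomes 1 to 19 and X). The 7 genes were chosen for having peaks, and without them the number was 18 of 188 (9.57%). These lists were drawn up with earlier results of the same data known, and no test was made. Peaks whose gene has no symbol in the list could not enter these counts, which lowers the shares by an unknown amount.

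Of the mesenchymal transcription factors, 6 of 23 had a peak, or 5 of 22 (22.7%) without Twist2, which was chosen for its peak. Besides Twist2 these were Zeb2, Foxf1, Foxf2, Tbx15 and Meox1. The peak of Foxf2, a forkhead factor gene of gut and palate mesenchyme, lay 10.2 kb downstream and that of Meox1, a homeobox gene of somites, 13.1 kb upstream. Peaks lay upstream of Tbx15 at 15.6 kb, of Zeb2 at 39.0 kb and of Foxf1 at 81.0 kb. Twist1, Snai1 and Snai2, of the same list, had no assigned peak.

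Of the elastic fibre genes, 4 of 24 had a peak, or 3 of 23 (13%) without Eln. With Eln stood 3 fibulin genes, whose proteins help to assemble the fibres. Fbln5 had a peak 7.45 kb upstream, Fbln1 15.9 kb upstream and Fbln2 68.2 kb downstream. Eln had 4 peaks, against 1 at each fibulin gene. Fbn1, a fibrillin gene, and Lox, whose enzyme cross-links elastin and collagen, had no assigned peak.

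Collagen genes had peaks at 3 of 41, or 2 of 40 (5.00%) without Col3a1. Col13a1 and Col11a2, unlike Col3a1, had theirs inside the gene, 76.4 and 23.7 kb from the start. Col1a1, Col1a2 and Col5a2, whose chains form fibrils with or beside type III collagen, had no assigned peak. Heparan sulfate enzymes had 3 of 25, or 2 of 24 (8.33%) without Sulf2. These were Sulf2, Hpse with a peak 28.0 kb upstream, and Hs3st5 with a peak inside, 105 kb from the start. Sulf1, the sister gene of Sulf2, had no assigned peak.

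Other matrix glycoproteins and proteoglycans, a list with none of the 7 genes, had 5 of 43 (11.6%). Lama2, a laminin chain gene of muscle, had 2 peaks, 39.2 kb upstream and 104 kb inside. The others were Lamc3, 6.75 kb upstream, Fmod, over the end of the gene at 10.5 kb, Matn1, 69.0 kb downstream, and Spock3, 321 kb upstream. Fn1, the fibronectin gene, had no assigned peak. Surface genes of fibroblasts and stroma had 2 of 20, Thy1 and Nt5e, or 1 of 19 (5.26%) without Thy1. A region of 4351 bp inside Nt5e, 3.48 kb from its start, is listed under 2 peak names, and a further peak of 1251 bp lay 7.52 kb upstream.

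The lists of intermediate filaments (1 of 12) and of platelet-derived growth factors and their receptors (1 of 7) held no gene with a peak other than Vim and Pdgfra. Desmin, nestin and the beta receptor gene Pdgfrb were among those without an assigned peak. Leaving out Vim and Pdgfra, the counts were 0 of 11 and 0 of 6 genes. The share over all protein-coding genes was 6.16%, so nothing is read from 0 in lists this short. The 12 peaks of the 7 genes had a median distance of 32.3 kb and a median width of 1851 bp, against 25.9 kb and 1551 bp over the 20 distinct regions at the 18 other genes. Inside the gene lay 1 of the 12 peaks, against 5 of the 20 regions. None of these differences was tested.

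**Figure D4:**
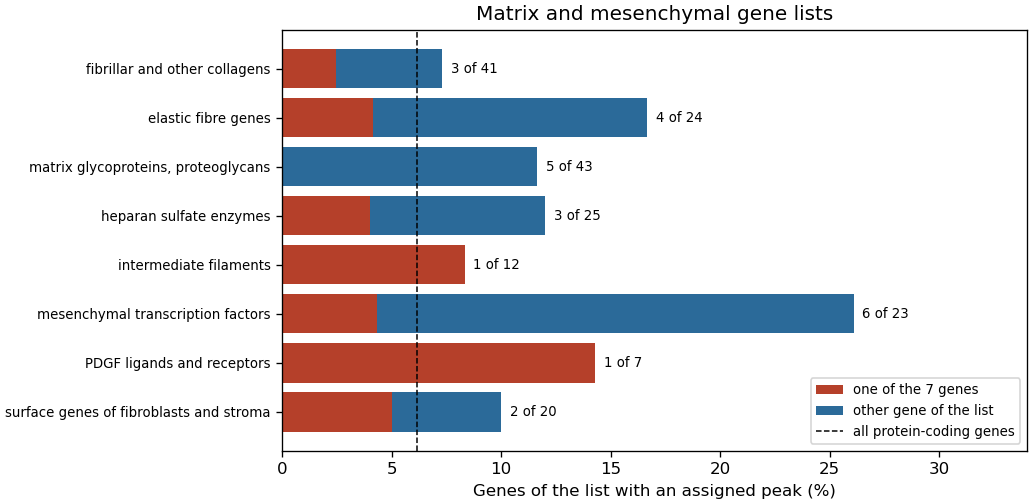
Share of genes with an assigned peak (x axis, %) in each of the 8 lists, with the 7 genes in red and the other genes of the list in blue. The dashed line is the share over all protein-coding genes, 6.16%. The red parts were fixed by the choice of the 7 genes, and the longest blue part is that of mesenchymal transcription factors, with 5 genes.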

How the data were processed

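One macroH2A1 and 1 IgG library were made from E14 cells. Per the submitters' processing notes, the aligner was Bowtie and the genome NCBIM37 (mm9). The deposited list holds peak regions in base pairs, with names that begin with CCAT, a peak caller, and columns in the layout of the annotation package ChIPpeakAnno. Which version, threshold and control the caller used is not stated in the sources used here. All starts and ends are multiples of 50 bp, and widths follow from them.

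From these columns, distances to the nearest base, overlaps, neighbours and counts were computed with Python 3.11.15, pandas 2.3.3 and numpy 2.4.6, and the functions were tested on simulated data. The deposited distance runs to the lower coordinate of the peak in all 2560 rows and was used only as an alternative. Gene lists were joined to the peaks through RefSeq symbols and synonyms (GRCm38.p6), requiring the same chromosome. RefSeq also gave neighbour names. The 7 genes and the gene lists were chosen with earlier results of these data known. All 7 genes, every gene with a peak within 200 kb and every list gene with a peak are named; the genes named as without a peak were picked as well-known list members after the results were seen. Alternatives changed the width filter, the assignment, the distance and the members.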

Additional observations from a re-analysis of the deposited data

How the results depend on the processing

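With 1 library and no score per peak, no alternative tests reproducibility, and small counts change by whole genes. Of 23 recomputed values, 19 were kept and 4 moved. Kept means within 1.5 times the reported count or, for medians, within the exact binomial 95% interval of the median. These intervals were wide, 14.9 to 52.0 kb for distance and 1251 to 2001 bp for width. They treat the 12 peaks as independent, which peaks of 1 gene are not. Most alternatives also reuse the same peaks, so a kept value is no measure of stability. With only peaks wider than the list median, 9 of the 12 peaks were left, 1 gene instead of 2 had a peak within 10 kb (Thy1 dropped out), and 13 instead of 25 list genes had a peak. Within 5 kb the number was also 1, Sulf2. Without Eln, the gene with most peaks, 0 genes instead of 1 had a peak in the gene, 8 peaks were left and the median width was 1776 bp. Taking every peak within 50 kb of a gene body, whatever its assigned gene, left 9 peaks, with Sulf2 at 1 and Vim at 0. The median distance ran from 29.0 to 38.8 kb over all alternatives. No paired analysis was possible because each antibody has 1 library.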
